A study of Mus musculus with 6 samples.

Results

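The 10 histone demethylase genes Kdm2a, Kdm2b, Kdm3a, Kdm3b, Kdm4a, Kdm4b, Kdm4c, Kdm5b, Kdm6a and Kdm6b were followed in mouse embryonic stem (ES) cells during their conversion from serum medium to 2i+vitC medium. The genes were chosen by name, and each of the 10 was found once among the 12626 genes measured. The cells were wild-type J1 ES cells, a single established line grown without feeder cells on gelatin, and no group carried a mutation. At D0 the cells were in serum medium with 15% fetal bovine serum and 1000 U/mL of leukemia inhibitory factor (LIF). At D6 and D13 they had spent 6 or 13 days in serum-free 2i+vitC medium, which kept LIF at 1000 U/mL and added the GSK3 inhibitor CT-99021 at 3 µM, the MEK inhibitor PD0325901 at 1 µM and vitamin C at 100 µg/mL. Medium and day therefore changed together, and the inhibitors and vitamin C were added together, so that their effects cannot be told apart in these samples. mRNA was sequenced from 2 biological replicates per day, 6 samples in all.

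JmjC demethylases remove methyl groups from histone lysines by oxidizing them, with ferrous iron, oxygen and alpha-ketoglutarate, and vitamin C keeps the iron of such enzymes in its reduced form. KDM2 enzymes act mainly on H3K36, KDM3 enzymes on mono- and dimethylated H3K9, KDM4 enzymes on trimethylated H3K9 and H3K36, KDM5 enzymes on H3K4, and KDM6 enzymes on H3K27. In ES cells, KDM2B recruits a variant Polycomb complex to unmethylated CpG islands, and KDM3A, KDM3B, KDM4A and KDM4C oppose the repressive H3K9 mark. The transcripts of these enzymes are what was measured here, and neither protein, activity nor histone methylation was.

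RefSeq promoter windows on the GRCm38.p6 build, which run from 250 bases before to 50 bases after a transcription start, were found for 6 of the 10 genes: Kdm2b, Kdm3a, Kdm4a, Kdm4c, Kdm5b and Kdm6a. Those of the genes with a window whose transcript level passed a test below (Kdm4c, Kdm6a, Kdm3a) are shown, 5′ to 3′ on the strand of the gene, because they carry different numbers of the hexamer CACGTG, the consensus E-box, which is printed in capitals. For Kdm3a, the first of its 3 windows is given. The hexamer was chosen after the windows had been read, and as a palindrome it reads the same on both strands.
Kdm4c, chr4:74242247-74242546, plus strand: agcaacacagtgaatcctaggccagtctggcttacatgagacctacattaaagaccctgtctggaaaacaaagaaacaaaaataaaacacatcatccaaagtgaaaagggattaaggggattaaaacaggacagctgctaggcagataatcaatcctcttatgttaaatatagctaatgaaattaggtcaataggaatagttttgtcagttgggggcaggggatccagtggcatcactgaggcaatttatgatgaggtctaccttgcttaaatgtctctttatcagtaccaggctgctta
Kdm4c, chr4:74251629-74251928, plus strand: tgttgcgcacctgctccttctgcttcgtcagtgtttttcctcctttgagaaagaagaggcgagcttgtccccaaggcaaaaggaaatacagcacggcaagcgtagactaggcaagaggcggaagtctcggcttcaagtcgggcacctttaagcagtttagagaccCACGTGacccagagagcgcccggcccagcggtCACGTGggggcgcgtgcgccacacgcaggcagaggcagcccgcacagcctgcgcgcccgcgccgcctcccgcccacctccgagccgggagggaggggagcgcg
Kdm6a, chrX:18162325-18162624, plus strand: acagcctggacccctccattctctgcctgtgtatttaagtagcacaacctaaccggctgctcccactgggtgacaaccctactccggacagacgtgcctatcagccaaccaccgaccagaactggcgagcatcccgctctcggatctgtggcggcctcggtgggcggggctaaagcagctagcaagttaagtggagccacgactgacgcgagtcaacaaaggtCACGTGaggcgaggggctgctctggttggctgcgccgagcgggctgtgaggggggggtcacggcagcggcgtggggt
Kdm3a, chr6:71632868-71633167, minus strand: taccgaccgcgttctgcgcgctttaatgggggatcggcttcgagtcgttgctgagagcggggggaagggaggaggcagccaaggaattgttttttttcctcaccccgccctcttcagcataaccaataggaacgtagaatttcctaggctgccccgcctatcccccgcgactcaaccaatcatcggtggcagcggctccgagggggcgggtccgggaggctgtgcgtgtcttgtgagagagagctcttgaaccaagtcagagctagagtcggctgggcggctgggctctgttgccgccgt
The hexamer occurred 2 times in the downstream window of Kdm4c, 1 time in the window of Kdm6a and in no window of Kdm2b, Kdm3a, Kdm4a or Kdm5b. Of all 32851 promoter windows of the same length in the RefSeq table, 7.15% held it. The downstream Kdm4c window held 28 CpG sites, that of Kdm6a 21, that of Kdm4a 13 and that of Kdm5b 17, against a median of 7 over all windows, while the upstream Kdm4c window held 0. The 3 windows of Kdm3a held 24 (the one printed), 40 and 0. The 4 windows of Kdm2b held between 18 and 49 CpG sites. Reads were counted per gene, so that in these values transcripts from the separate starts of Kdm2b and Kdm4c could not be told apart. Any shorter Kdm2a or Kdm2b transcripts that lack the JmjC domain would be counted with the full-length ones. The study lists a chimeric Kdm2b transcript whose first exon lies in a B4A transposon, with more junction reads at D6 and D13 than at D0. Its part in the Kdm2b values was not tested.

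Between 73230745 and 83688345 reads per sample were counted on genes. The members had between 1715 and 60467 reads in each sample, so that none was near the lowest detectable level. Of 10 ES cell markers, all 10 were measured, with a summed level of 3659 and 4778 CPM (counts scaled to the depth of each sample) at D0, then 7208 and 7126 at D6 and then 7822 and 6357 at D13. From D0 to D13, in the limma test used below, 5 of the 10 rose (Nanog, Klf4, Tfcp2l1, Tdh and Dppa5a) and Sox2 fell, against 20.6% and 21.5% of all features. Markers of other cell types were lower and mostly unmeasured. Of primitive endoderm markers, 3 of 6 were measured and summed to 17.8 and 20.4 CPM at D0 and 3.48 to 5.42 CPM later, a drop carried by Dab2, while Sox17 and Pdgfra had log2 fold changes of 0.30 and 0.69 from D0 to D13 (adjusted p of 0.65 and 0.25 by limma). Of fibroblast markers 3 of 6 summed to 29.7 and 10.1 CPM at D0 and 4.86 to 5.62 CPM later. Col1a1, with a log2 CPM of 4.21 and 1.87 at D0, made up most of the higher sum. From D0 to D13 Col1a1 and Col1a2 fell in limma, whereas Thy1 differed by -0.60 (adjusted p = 0.31 by limma). Trophoblast markers (2 of 5 measured) summed to 36.4 and 69.5 CPM at D0, then 93.0 and 98.1 at D6 and then 75.4 and 71.7 at D13, and neural and mesodermal progenitor markers (2 of 6 measured) to 144 and 93.7 CPM at D0, then 61.4 and 45.5 at D6 and then 81.5 and 77.1 at D13. The latter sum followed Nes, whereas Sox1, the other gene measured, rose from D0 to D13 by 1.86 on the log2 scale (adjusted p = 0.0023 by limma). The trophoblast sum was mostly Tfap2c, while Eomes, the other gene measured, differed by -0.44 from D0 to D13 (adjusted p = 0.40 by limma). The part of cells of other types in the changes described here was not tested, and in bulk RNA fewer cells of a type and less RNA per cell cannot be told apart.

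Levels below are log2 CPM as deposited, and differences between days are log2 fold changes from a limma fit of all 6 samples, with p-values adjusted by Benjamini-Hochberg over all 12928 genes and transposon families. A gene passed the test at an adjusted p under 0.05. No member passed upward in any of the 3 comparisons, and those that passed downward were Kdm4c from D0 to D6, Kdm3a from D6 to D13, and Kdm2a, Kdm4c and Kdm6a from D0 to D13. From D0 to D6, 1 of 10 members fell and 0 rose, while of all features 10.2% fell and 13.7% rose. From D6 to D13, 1 of 10 fell and 0 rose, against 2.78% and 1.39% of all features. From D0 to D13, 3 of 10 fell and 0 rose, against 21.5% and 20.6%. At an unadjusted p under 0.05, 2 members were higher and 2 lower at D6 than at D0, 0 and 3 at D13 than at D6, and 0 and 5 at D13 than at D0. No share over all features was taken at this unadjusted threshold, here or below. At an adjusted p under 0.05 by limma, 3090, 540 and 5441 of 12928 features already passed in these comparisons, in either direction. The study also asked of a gene for more than a 4-fold change, which 0 of 10 members met in any comparison with limma, against 9.75% of all features in the D0 to D6 comparison, 1.1% in that of D6 to D13 and 13.3% in that of D0 to D13. The median log2 fold change of the 10 members was 0.00 for D0 to D6, -0.43 for D6 to D13 and -0.40 for D0 to D13, beside -0.01, -0.02 and -0.02 over all features.

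**Figure D1:**
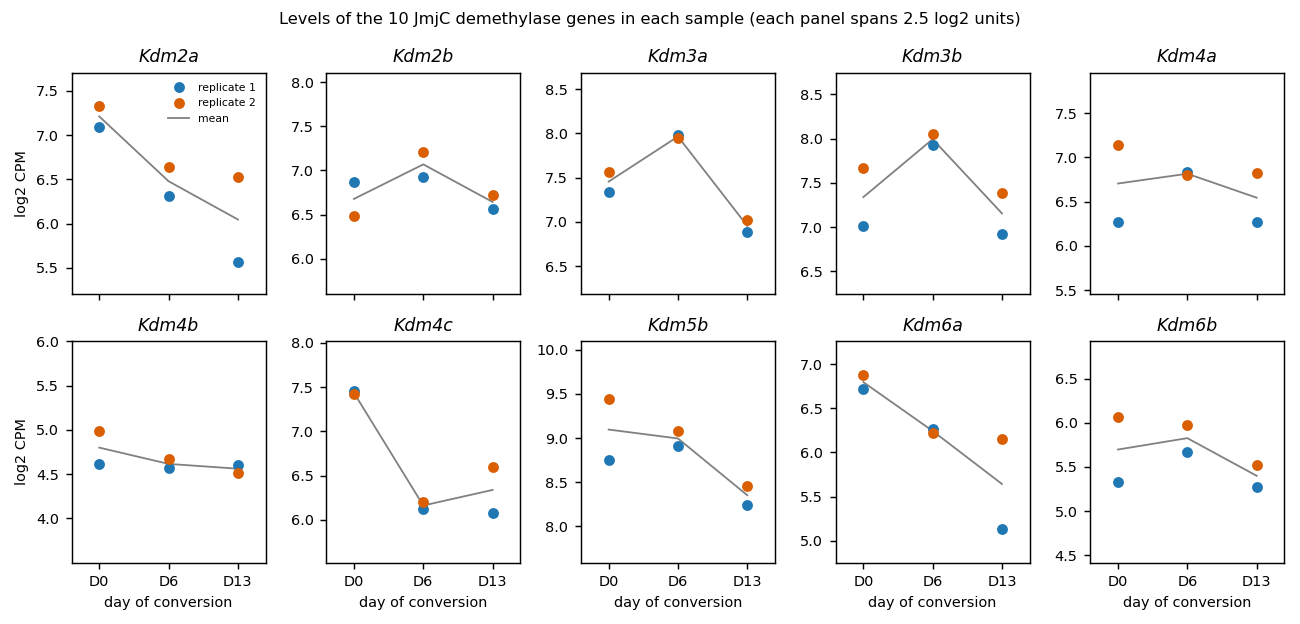
Level of each of the 10 genes in log2 CPM (vertical axis, every panel spanning 2.5 log2 units) on the 3 days of conversion (horizontal axis), with a point per replicate and a line through the means of 2. At D13 both replicates of Kdm2a, Kdm3a, Kdm4b, Kdm4c, Kdm5b and Kdm6a lay below both D0 values, Kdm2b, Kdm3a, Kdm3b, Kdm4a and Kdm6b had their highest means at D6, and at D13 the replicates of Kdm2a and Kdm6a lay far apart.

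**Figure D2:**
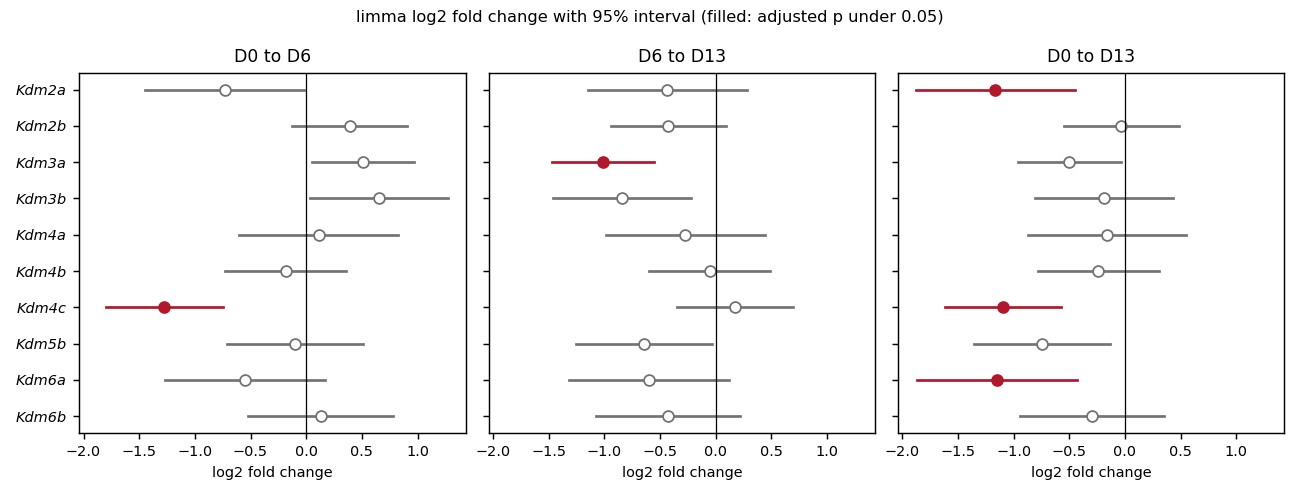
limma log2 fold changes (horizontal axis) of the 10 genes in the 3 comparisons, with 95% intervals, filled where the adjusted p was under 0.05. The filled points are Kdm4c from D0 to D6, Kdm3a from D6 to D13, and Kdm2a, Kdm4c and Kdm6a from D0 to D13, all on the negative side.

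Kdm2a and Kdm2b, the H3K36 demethylases with a CXXC domain that binds unmethylated CpG sites, are given first. Kdm2a (chromosome 19, 4316144 to 4398721) had a log2 CPM of 7.09 and 7.33 at D0, then 6.31 and 6.64 at D6 and then 5.57 and 6.52 at D13. Both D0 values lay above all later ones, and the replicates differed most at D13. From D0 to D13 the level was 2.24-fold lower, a log2 fold change of -1.17 (SE 0.31, adjusted p = 0.017 by limma), with -0.73 (SE 0.31, adjusted p = 0.13 by limma) from D0 to D6 and -0.43 (SE 0.31, adjusted p = 0.43 by limma) from D6 to D13. The D0 to D6 difference passed in 5 of 15 alternatives, among them without either D13 replicate (adjusted p = 0.034 by limma in both), in a range of 0.028 to 0.53. The D0 to D13 difference was the largest fall of a member from D0 to D13, and it lost its call without D0 replicate 2 (-1.05, adjusted p = 0.089 by limma) and without D13 replicate 1 (-0.69, adjusted p = 0.066 by limma), the adjusted p ranging from 0.0021 to 0.089 over 15 alternatives. Kdm2b (chromosome 5, 122870664 to 122989270) had a log2 CPM of 6.87 and 6.49 at D0, then 6.93 and 7.21 at D6 and then 6.57 and 6.72 at D13. The D0 and D13 values overlapped, and both D6 values were above them. Its log2 fold change was 0.39 (95% interval -0.13 to 0.91, adjusted p = 0.26 by limma) from D0 to D6 and -0.03 (95% interval -0.55 to 0.48, adjusted p = 0.91 by limma) from D0 to D13. The genes whose 6 values, relative to D0, lay nearest to those of Kdm2a among 12347 genes with at least 10 reads in each sample were Soga1, Lrrc9 and Cecr2, at Euclidean distances of 0.14, 0.18 and 0.20 log2 units, and their log2 fold changes from D0 to D13 were -1.22, -1.17 and -1.07.

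Kdm3a and Kdm3b, which demethylate mono- and dimethylated H3K9, had their highest values at D6 and lower ones at D13. Kdm3a (chromosome 6, 71588970 to 71632990) had a log2 CPM of 7.34 and 7.57 at D0, then 7.98 and 7.95 at D6 and then 6.88 and 7.03 at D13. The values of the 3 days did not overlap. The fall from D6 to D13 was 2.01-fold, a log2 fold change of -1.01 (SE 0.20, adjusted p = 0.034 by limma), while those of 0.51 from D0 to D6 (SE 0.20, adjusted p = 0.11 by limma) and -0.50 from D0 to D13 (SE 0.20, adjusted p = 0.077 by limma) did not pass. Kdm3a lost its call from D6 to D13 without D6 replicate 1 (adjusted p = 0.25 by limma), D6 replicate 2 (0.33) or D13 replicate 1 (0.12) and in limma without a mean-variance trend (0.056), in a range of 0.017 to 0.33 over 15 alternatives, while its log2 fold change stayed between -1.08 and -0.81. Kdm3b (chromosome 18, 34777008 to 34839370) had a log2 CPM of 7.02 and 7.66 at D0, then 7.93 and 8.05 at D6 and then 6.93 and 7.39 at D13. Its D6 values were above all others, and those of D0 and D13 overlapped. The log2 fold changes of Kdm3b were 0.65 (SE 0.27, adjusted p = 0.12 by limma) from D0 to D6, -0.84 (SE 0.27, adjusted p = 0.11 by limma) from D6 to D13 and -0.18 (SE 0.27, adjusted p = 0.61 by limma) from D0 to D13. Its value from D0 to D6 passed without D0 replicate 2 (0.98, adjusted p = 0.045 by limma), in a range of 0.035 to 0.44 over 15 alternatives.

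Of the KDM4 genes, which act on trimethylated H3K9 and H3K36, Kdm4c fell early and stayed low, whereas no difference of Kdm4a or Kdm4b passed the test. Kdm4c (chromosome 4, 74242497 to 74405864) had a log2 CPM of 7.45 and 7.42 at D0, then 6.12 and 6.20 at D6 and then 6.08 and 6.59 at D13. The D0 replicates were close to each other and well above all other samples. From D0 to D6 Kdm4c was 2.42-fold lower, a log2 fold change of -1.27 (SE 0.23, adjusted p = 0.0042 by limma). From D0 to D13 it was 2.14-fold lower, a log2 fold change of -1.10 (SE 0.23, adjusted p = 0.0055 by limma). From D6 to D13 its log2 fold change was 0.18 (95% interval -0.35 to 0.70, adjusted p = 0.67 by limma). Both falls passed in 15 of 15 alternatives, with an adjusted p of 0.0013 to 0.044 for D0 to D6 and of 0.0022 to 0.027 for D0 to D13. Kdm4a (chromosome 4, 118136957 to 118180090) had a log2 CPM of 6.27 and 7.14 at D0, then 6.83 and 6.80 at D6 and then 6.27 and 6.82 at D13. Its D0 replicates lay far apart and overlapped the values of both later days, and between D0 and D13 it differed by -0.16 on the log2 scale (95% interval -0.87 to 0.55, adjusted p = 0.70 by limma). Kdm4b (chromosome 17, 56325970 to 56403774) had a log2 CPM of 4.61 and 4.99 at D0, then 4.56 and 4.67 at D6 and then 4.61 and 4.51 at D13. The values of D6 overlapped those of D0 and of D13, the D13 values were at or just below the lower D0 value, and between D0 and D13 Kdm4b differed by -0.24 on the log2 scale (95% interval -0.78 to 0.31, adjusted p = 0.45 by limma).

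Kdm5b, an H3K4 demethylase that is abundant in ES cells, had the most reads of the 10 genes in each sample. On chromosome 1 (134560178 to 134632878), it had a log2 CPM of 8.75 and 9.44 at D0, then 8.91 and 9.08 at D6 and then 8.25 and 8.46 at D13. Both D13 values lay below all others, and the D0 replicates enclosed those of D6. Kdm5b had a log2 fold change of -0.10 (SE 0.27, adjusted p = 0.83 by limma) from D0 to D6, -0.64 (SE 0.27, adjusted p = 0.18 by limma) from D6 to D13 and -0.74 (SE 0.27, adjusted p = 0.053 by limma) from D0 to D13. The last of these passed without D0 replicate 1 (-1.08, adjusted p = 0.016 by limma) and with each sample centred on the median gene (-0.74, adjusted p = 0.049 by limma), in a range of 0.016 to 0.23 over 15 alternatives.

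Kdm6a and Kdm6b, the H3K27 demethylases, were both lowest on average at D13, and Kdm6a fell. Kdm6a (chromosome X, 18160862 to 18279936), which encodes the UTX subunit of a COMPASS-type H3K4 methyltransferase complex, had a log2 CPM of 6.71 and 6.88 at D0, then 6.27 and 6.22 at D6 and then 5.13 and 6.15 at D13. The days did not overlap, although D13 replicate 2 was close to the D6 values. From D0 to D13 Kdm6a was 2.22-fold lower, a log2 fold change of -1.15 (SE 0.32, adjusted p = 0.019 by limma), with -0.55 (SE 0.32, adjusted p = 0.25 by limma) from D0 to D6 and -0.60 (SE 0.32, adjusted p = 0.28 by limma) from D6 to D13. The call was lost without D0 replicate 1 (-1.23, adjusted p = 0.058 by limma) and without D0 replicate 2 (-1.07, adjusted p = 0.087 by limma), and without D13 replicate 1 the log2 fold change was -0.64, in a range of 0.0021 to 0.087 over 15 alternatives. Its difference from D0 to D6 passed in 3 of 15 alternatives, with only those days in the fit (adjusted p = 0.044 by limma), without D13 replicate 1 (0.045) and without D13 replicate 2 (0.046), in a range of 0.044 to 0.53. From D6 to D13 Kdm6a passed without D13 replicate 2 (-1.11, adjusted p = 0.033 by limma), in a range of 0.033 to 0.84. Kdm6b (chromosome 11, 69398508 to 69420367), an inducible gene in many cell types, had a log2 CPM of 5.33 and 6.07 at D0, then 5.67 and 5.98 at D6 and then 5.27 and 5.53 at D13. Its replicates at D0 enclosed the D6 values, and between D0 and D13 it differed by -0.30 on the log2 scale (95% interval -0.94 to 0.35, adjusted p = 0.43 by limma). Kdm6a has a Y-linked paralog, Uty, so that reads could have been split between these similar genes. Uty had a log2 CPM of 5.36 and 5.57 at D0 and of 4.43 and 5.16 at D13, with a log2 fold change of -0.67 (adjusted p = 0.084 by limma).

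To compare genes with each other, reads were divided by the merged exon length of each gene, which gave CPM per kb. Kdm5b had the highest mean on this scale on each day, with 34.0 ± 11.1, 30.9 ± 2.68 and 19.8 ± 2.03 CPM per kb at D0, D6 and D13 (SD, n = 2). At D0 it was followed by Kdm4c with 29.7 ± 0.51 and Kdm3a with 21.4 ± 2.38 CPM per kb. The replicates of Kdm5b and Kdm4c overlapped at D0, those of Kdm4c and Kdm3a did not, and every pair of neighbours further down the order overlapped, through Kdm4a (18.8 ± 7.74), Kdm6a (13.3 ± 1.08), Kdm3b (11.8 ± 3.68), Kdm2a (10.3 ± 1.19), Kdm2b (9.50 ± 1.77), Kdm6b (7.71 ± 2.73) and Kdm4b (5.74 ± 1.04). At D6 Kdm3a reached 30.4 ± 0.35 CPM per kb, within the replicates of Kdm5b, and Kdm4a, with 19.5 ± 0.27, and Kdm3b, with 18.1 ± 1.07, came next. With merged exon lengths Kdm4c had 12.3 ± 0.48 CPM per kb at D6, within the replicates of Kdm2b with 12.4 ± 1.73. The order and overlaps in this paragraph are those with merged exon lengths, and some differed with the longest transcript. With the latter, Kdm5b no longer overlapped Kdm4c at D0 or Kdm4a at D13, and Kdm3a lay below both Kdm5b replicates at D6. Kdm2b then lay above Kdm4c in both D6 replicates, and Kdm4b in place of Kdm2a had the lowest mean at D13. At D13 the replicates of Kdm5b, Kdm4a (16.4 ± 4.41) and Kdm3a (15.1 ± 1.04) overlapped in turn, and Kdm2a had the lowest mean, 4.82 ± 2.17, with Kdm4b at 4.82 ± 0.22. The sum over the 10 genes was 162 ± 28.7 CPM per kb at D0, 152 ± 7.57 at D6 and 107 ± 19.7 at D13. Both D13 samples, at 93.0 and 121, were below the lowest of the other samples, at 142.

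Within the subfamilies, the makeup on this per-length scale moved as follows, without a test. Kdm4c was 62.1% and 48.8% of the KDM4 sum at D0, then 32.8% and 34.0% at D6 and then 38.9% and 40.7% at D13, so that both D0 shares were above all later ones. Kdm4a was 34.0% ± 9.07 of that sum at D0 and 53.0% ± 1.39 at D6 (SD, n = 2). Kdm2b was 53.2% and 42.6% of the KDM2 sum at D0, then 67.0% and 66.3% at D6 and then 72.6% and 60.4% at D13, with every later share above those of D0. The KDM3 sum went from 28.9 and 37.5 CPM per kb at D0 to 48.0 and 49.0 at D6 and to 23.0 and 27.7 at D13, while Kdm3a remained between 57.2% and 68.2% of it. The KDM6 sum was 18.3 and 23.7 CPM per kb at D0, then 16.5 and 17.9 at D6 and then 9.75 and 15.1 at D13, and Kdm6a was 68.4% and 59.3% of it at D0, then 55.6% and 49.5% at D6 and then 42.9% and 56.2% at D13, with both D0 shares above all later ones. Dividing by the longest transcript instead gave shares of Kdm4c of 59.0%, 36.6% and 43.3% and of Kdm2b of 53.3%, 71.4% and 71.2% at D0, D6 and D13.

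**Figure D3:**
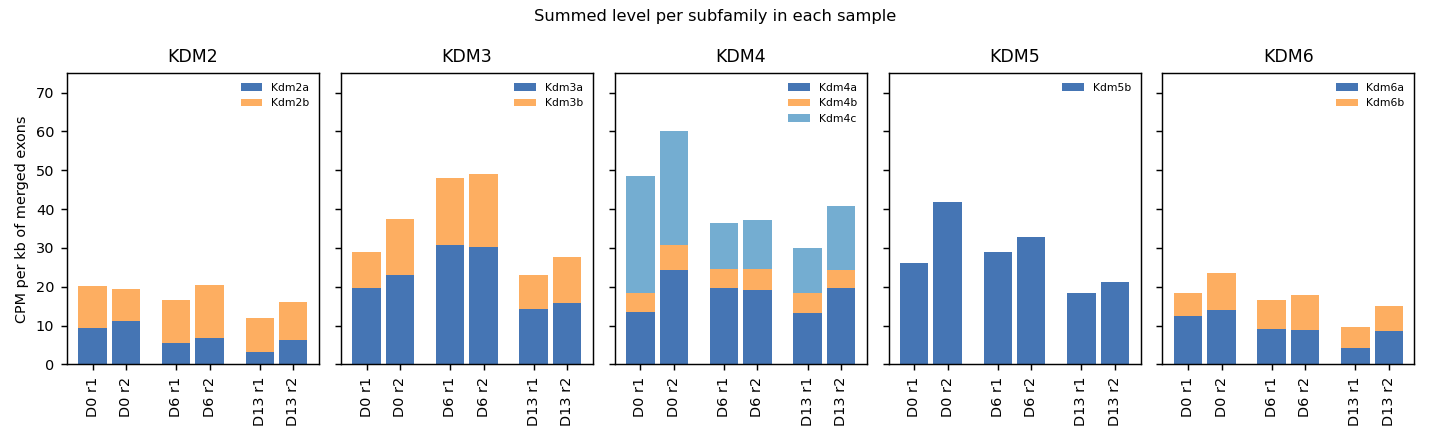
Stacked bars of the level of each gene, in CPM per kb of merged exons (vertical axis, from 0), in each of the 6 samples, with a panel per subfamily (Kdm5b alone stands for KDM5). The KDM3 bars are highest at D6, with 48.0 and 49.0 CPM per kb, and the Kdm4c segment is largest in both D0 samples.

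Differences with transcript length ran through these samples and bear on the members, which have 4.9 to 16.6 kb of merged exons. In D13 replicate 1 relative to D13 replicate 2, the median log2 difference was 0.59 for genes of up to 1.5 kb and -0.46 for genes over 8 kb. The same contrast was 0.23 and -0.22 at D0 and 0.05 and -0.06 at D6. Between days, the median difference from D0 to D13 was 0.66 for the shortest genes and -0.31 for those over 8 kb. A lower value in replicate 1 than in replicate 2 was found for 8 of 10 members at D0, 7 at D6 and 9 at D13. When each sample was centred within 10 bins of transcript length, an alternative chosen after seeing the data, the D0 to D13 log2 fold changes were -0.92 for Kdm2a (adjusted p = 0.0060 by limma), -1.05 for Kdm4c (0.0030) and -0.88 for Kdm6a (0.013), all past the threshold. With the same centring the D0 to D6 comparison had 4 members past the threshold, with -0.71 for Kdm2a (adjusted p = 0.028 by limma), 0.58 for Kdm3a (0.049) and 0.67 for Kdm3b (0.035) beside Kdm4c, so that 2 of the 4 rose. Over all features, 3556 of 12928 passed from D0 to D6 with this centring, against 3090 without it. The median of the members from D0 to D13 was then -0.21. How far length differences enter the deposited values of each member was not tested beyond this centring.

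**Figure D4:**
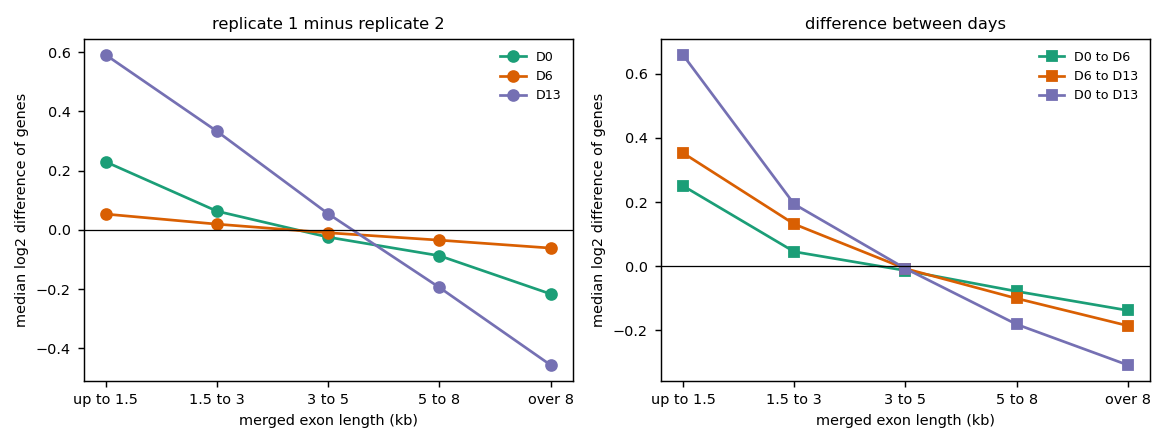
Median log2 difference over genes (vertical axes) in 5 classes of merged exon length (horizontal axes, in kb), between the replicates of each day (left) and between days (right). The D13 replicates differ most, from 0.59 for the shortest genes to -0.46 for the longest, and the D0 to D13 line runs from 0.66 to -0.31.

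Among other genes with a JmjC domain, 18 of 21 listed were measured, and from D0 to D13 1 rose and 8 fell, against 20.6% and 21.5% of all features, with a median log2 fold change of -0.58 beside -0.02 over all features. From D0 to D6, 1 rose and 3 fell (13.7% and 10.2% of all features), and from D6 to D13 limma called 0 in either direction, with 4 lower at an unadjusted p under 0.05. Jarid2, a catalytically inactive relative of KDM5 that works with the H3K27 methyltransferase, went from a log2 CPM of 9.55 and 9.77 at D0 to 7.96 and 7.98 at D6 and 7.11 and 7.34 at D13, a log2 fold change of -2.43 (SE 0.21, adjusted p = 7.3e-05 by limma). Jmjd1c, the third member of the KDM3 subfamily, went from 8.03 and 8.43 to 5.28 and 6.47 at D13, a log2 fold change of -2.35 (SE 0.36, adjusted p = 0.0012 by limma). Jmjd1c was already lower at D6, with 6.77 and 6.79 and a log2 fold change of -1.45 from D0 (adjusted p = 0.019 by limma), beside the 0.51 of Kdm3a and the 0.65 of Kdm3b. Jmjd4, a hydroxylase of a translation termination factor, had a log2 fold change of -1.89 (SE 0.37, adjusted p = 0.0040 by limma). The riser was Kdm5d, the Y-linked H3K4 demethylase, with a log2 CPM of -0.64 and 0.72 at D0, then 4.58 and 4.59 at D6 and then 5.04 and 5.56 at D13, a D0 to D13 log2 fold change of 5.27 (SE 0.43, adjusted p = 6.0e-05 by limma). Its X-linked paralog Kdm5c, with which it could share reads, had a log2 fold change of -0.17 (adjusted p = 0.61 by limma), and Kdm5a one of 0.06 (adjusted p = 0.90 by limma). Kdm5d, Jarid2, Jmjd1c and Jmjd4 passed from D0 to D13 without any 1 of the 6 samples.

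**Figure D5:**
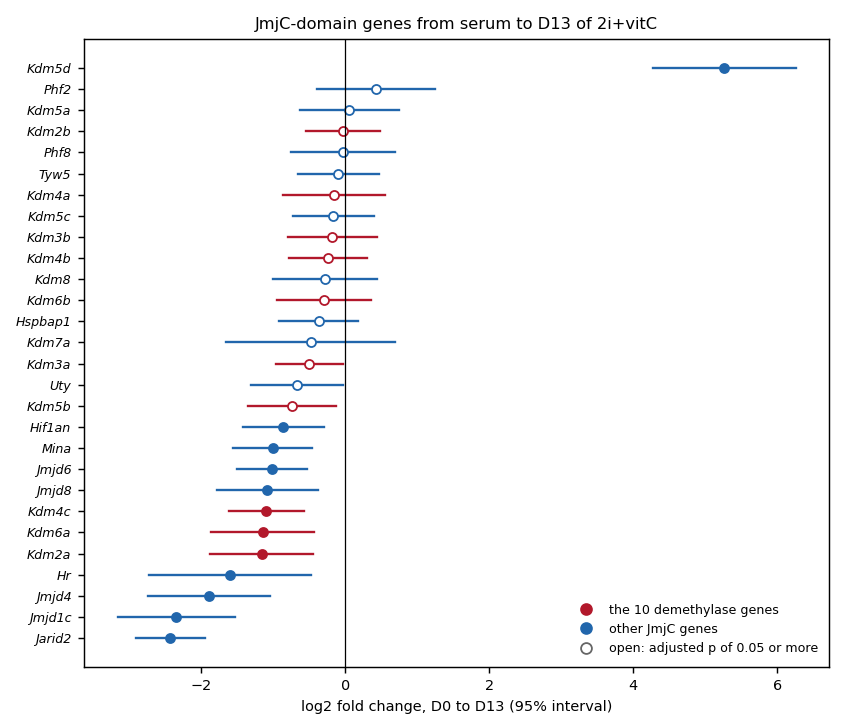
limma log2 fold change from D0 to D13 (horizontal axis) with its 95% interval for each of the measured JmjC genes, the 10 demethylase genes in red and the 18 others in blue, filled where the adjusted p was under 0.05. Kdm5d lies apart at 5.27, and Jarid2 is lowest at -2.43, below Kdm2a at -1.17.

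The genes for enzymes that write the marks which the members remove were counted by mark, and 20.6% of all features rose and 21.5% fell from D0 to D13. Of 6 H3K4 methyltransferase genes, 4 fell and 0 rose from D0 to D13 in limma (0 were higher at an unadjusted p under 0.05), with a median log2 fold change of -1.16, and Setd1b fell in each of the shorter comparisons. The 4 were Setd1b with -2.97 (SE 0.34, adjusted p = 0.00029 by limma), Kmt2a with -1.54 (SE 0.46, adjusted p = 0.026 by limma), Kmt2d with -1.20 (SE 0.36, adjusted p = 0.026 by limma) and Setd1a with -1.12 (SE 0.26, adjusted p = 0.0093 by limma). Of 6 H3K9 methyltransferase genes, 3 fell and 0 rose in limma (0 were higher at an unadjusted p under 0.05), with a median of -0.54. Ehmt1, which encodes GLP, had a log2 fold change of -1.16 (adjusted p = 0.0040 by limma), Suv39h2 one of -0.89 (adjusted p = 0.011 by limma) and Setdb2 one of -0.84 (adjusted p = 0.036 by limma). From D0 to D6 the genes of this list that fell were Ehmt1 and Suv39h1, against 10.2% of all features, and with centring by length 3 genes fell. Suv39h1 differed by -1.32 at D6 relative to D0 (adjusted p = 0.0058 by limma), by 1.09 at D13 relative to D6 (0.050) and by -0.23 at D13 relative to D0 (0.49). Of 6 H3K36 methyltransferase genes, Nsd1 fell, with -0.98 (adjusted p = 0.030 by limma), and the median was -0.45. Of 6 genes of the H3K27 methyltransferase complex, limma called 0 in either direction (1 was higher at an unadjusted p under 0.05), the median was 0.37, and the catalytic subunit gene Ezh2 had a log2 fold change of 0.34 (adjusted p = 0.20 by limma). With centring by length, 1 of these 6 rose from D0 to D13, with a median of 0.53, and 1 rose from D0 to D6. Over all features, 5818 and 3556 of 12928 then passed in either direction. Neither of the 2 LSD demethylase genes, which remove H3K4 methylation through a flavin cofactor, passed the test or reached an unadjusted p under 0.05, with a median of -0.07. Setd1b, Setd1a, Ehmt1 and Suv39h2 passed without any 1 sample. The calls of Kmt2a, Kmt2d and Nsd1 were lost without D0 replicate 2 (-1.15, -0.94 and -0.69) and without D13 replicate 1 (-0.79, -0.68 and -0.61), with adjusted p of 0.14 to 0.16 by limma, and that of Setdb2 was lost without D0 replicate 2, D13 replicate 1 or either D6 replicate (0.085 to 0.13).

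Of 9 genes for the variant Polycomb complex that KDM2B joins, 1 rose and 2 fell from D0 to D13, against 20.6% and 21.5% of all features, with a median of -0.26. From D0 to D6 Pcgf1 and Bcorl1 rose and 0 fell, against 13.7% and 10.2% of all features. With centring by length the D0 to D13 median was 0.01, and from D0 to D6 1 rose and 1 fell, with Pcgf1 no longer past the threshold (adjusted p = 0.068 by limma) and Bcor past it (-0.90, adjusted p = 0.027 by limma). Pcgf1, which encodes the subunit that defines this complex, rose from a log2 CPM of 2.81 and 2.58 at D0 to 4.30 and 3.85 at D13, a log2 fold change of 1.38 (SE 0.28, adjusted p = 0.0049 by limma). With centring by length this log2 fold change was 0.84 (adjusted p = 0.020 by limma). Rybp had -1.01 (adjusted p = 0.013 by limma) and Bcor -0.91 (adjusted p = 0.045 by limma), of which Bcor did not pass from D0 to D13 with centring by length (adjusted p = 0.063 by limma). Pcgf1 passed without any 1 sample, whereas Rybp was lost without D0 replicate 2 (-0.70, adjusted p = 0.066 by limma) or D13 replicate 1 (-0.86, 0.068), and Bcor without D0 replicate 2 or D13 replicate 1 (-0.58 in both, 0.23) or either D6 replicate (0.051 and 0.052). Of 9 genes for the COMPASS-type complex that holds KDM6A, 3 rose and 1 fell, with a median of 0.25, and from D0 to D6 Wdr5 and Ncoa6 rose. Kdm6a itself, which is not in this list, fell. Wdr5, a scaffold subunit, rose from 7.67 and 7.69 to 9.58 and 9.44, a log2 fold change of 1.83 (SE 0.21, adjusted p = 0.00026 by limma), Ncoa6 by 0.86 (adjusted p = 0.021 by limma) and Ash2l by 0.75 (adjusted p = 0.024 by limma), while the gene that fell was Kmt2d, one of the catalytic subunits. Wdr5 passed without any 1 sample. The call of Ncoa6 was lost without D0 replicate 1 (0.82), D0 replicate 2 (0.89) or D13 replicate 2 (0.57), with adjusted p of 0.054 to 0.072 by limma, and that of Ash2l without D0 replicate 1 (0.70), D13 replicate 1 (0.65) or either D6 replicate, with adjusted p of 0.058 to 0.083.

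Of genes for the transport of vitamin C and its oxidized form, 5 of 6 were measured, and 2 rose and 2 fell from D0 to D13, against 20.6% and 21.5% of all features. The median log2 fold change was -0.20, and with centring by length it was 0.07 and 1 gene fell. From D0 to D6 Slc23a1 fell and 0 rose, against 10.2% and 13.7% of all features. Slc23a1, a sodium-dependent vitamin C transporter, was at a log2 CPM of 4.34 and 4.73 in serum and at 1.49 and 1.68 at D6 and 1.46 and 1.46 at D13, a log2 fold change of -3.07 (SE 0.31, adjusted p = 0.00014 by limma). Its relative Slc23a2 had a log2 fold change of -0.20 (adjusted p = 0.68 by limma). Of the glucose transporter genes whose products also carry dehydroascorbate, Slc2a8 had 1.34 (adjusted p = 0.011 by limma), Slc2a3 0.84 (adjusted p = 0.028 by limma) and Slc2a1 -1.20 (adjusted p = 0.049 by limma), the last no longer past the threshold with centring by length (adjusted p = 0.055 by limma). Slc2a1 had a log2 CPM of 8.70 and 7.23 at D0, and without D0 replicate 1 its difference was -0.47 (adjusted p = 0.24 by limma) and without D0 replicate 2 -1.93 (0.0037), while it lost its call without D13 replicate 1 (0.20) or D13 replicate 2 (0.11). Slc23a1 passed without any 1 sample, Slc2a8 was lost without D0 replicate 1 (0.98, adjusted p = 0.055 by limma) or D13 replicate 1 (1.04, 0.073), and Slc2a3 was lost without any sample but D0 replicate 2 (0.58 to 0.93, adjusted p of 0.051 to 0.11). Genes activated by hypoxia-inducible factor (HIF) were listed because Kdm3a and Kdm4b are known to be among its targets and because HIF is itself controlled by hydroxylases that need iron. Of 14 measured, 3 rose and 4 fell from D0 to D13, with a median of -0.44. From D0 to D6 2 rose (Vegfa and Mxi1) and 4 fell (Pdk1, P4ha2, Egln3 and Bnip3), against 13.7% and 10.2% of all features. The D0 to D13 values were -3.30 for Pdk1 (adjusted p = 4.3e-05 by limma), 2.62 for Vegfa (adjusted p = 0.0085 by limma), -1.93 for P4ha2 (adjusted p = 0.0017 by limma) and -1.88 for Egln3 (adjusted p = 0.0034 by limma). Vegfa had a log2 CPM of 2.76 and 5.09 at D0 and of 6.37 and 6.72 at D13, and its difference was 1.45 without D0 replicate 1 (adjusted p = 0.0068 by limma) and not past the threshold without D13 replicate 1 (0.053) or D13 replicate 2 (0.059), while Pdk1, P4ha2 and Egln3 passed without any 1 sample. With centring by length 4 rose and 6 fell from D0 to D13, where 5818 of 12928 features passed in either direction. All these lists, like the members, were drawn up with earlier results of these data known.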

How the data were processed

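The RNA-seq libraries of J1 ES cells were grouped by the day of conversion in the labels (D0, D6 or D13), with 2 biological replicates each. Per the labels and the study's methods, the authors made poly(A) libraries with a stranded kit, mapped read pairs onto mm10 (TopHat2 2.0.6), counted them on RefSeq genes (HTSeq 0.6.1), counted transposon families separately (Bowtie 1.0.0), combined both tables, scaled them by TMM and deposited voom log2 CPM. The strand setting of the counting is not given in the sources used here. Such values depend on the scaling, and they hold no precision weights.

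The deposited log2 CPM of 12626 genes and 302 families were tested here with limma 3.58.1 (R 4.3.3), with a mean for each day, a mean-variance trend and no block. P-values were adjusted over all 12928 features. Multiplied by a constant per sample, each value of a gene fell on whole reads plus 0.5 within a tolerance of 0.05, which gave the reads per gene. Tables were made with Python 3.11.15, pandas 2.3.3 and numpy 2.4.6, and figures with matplotlib 3.10.9. Positions are from the RefSeq table on GRCm38.p6 (mm10) and lengths from GENCODE on the same build, which matched 91.0% of genes. The fit was tested on simulated data for D0 to D13. Of 50 genes changed by a log2 change of 1, 74% were called, of those changed by 1.5 or more 100%, and of 12728 unchanged features 7 were called. The simulated reads had the same dispersion for every feature and day and no differences with transcript length. Most of the 12928 features were unchanged there, whereas 5441 passed from D0 to D13 in the real samples. These rates therefore describe the fit under those settings and not its performance on these samples.

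With 2 replicates per day, an exact permutation test of a single gene could not be informative. The genes named are all 10 members, from each list up to 4 genes that passed from D0 to D13, by size of change, and the 3 genes nearest to the member with the largest fall. Ezh2, Slc23a2, Suv39h1, Bcorl1, Mxi1, Bnip3, Kdm5a, Kdm5c, the single cell type markers and the Y-linked genes other than Kdm5d were named outside this rule, after their values were seen. The members and the lists were chosen with earlier results of these data known. The alternatives were log2(CPM + 1), keeping rows with 10 reads in 2 samples, fitting only the days compared, blocking on the replicate number, omitting each sample in turn, no trend, voom weights on the recovered reads, centring on the median gene, genes only, other thresholds and, chosen after seeing the data, centring within 10 length bins and omitting samples for the named genes of the lists.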

Additional observations from a re-analysis of the deposited data

How the results depend on the processing

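The number of members past the threshold was 1 for D0 to D6, 1 for D6 to D13 and 3 for D0 to D13. It was 3 from D0 to D6 with only the 2 days compared, 4 with centring by transcript length, 0 from D6 to D13 without a mean-variance trend, and 0 from D6 to D13 and 1 from D0 to D13 at an adjusted p under 0.01. Leaving out each sample in turn gave 1 to 3 from D0 to D6 (3 without D13 replicate 1 or D13 replicate 2, 2 without D0 replicate 2), 0 to 2 from D6 to D13 (0 without D6 replicate 1, D6 replicate 2 or D13 replicate 1, and 2 without D13 replicate 2) and 1 to 3 from D0 to D13 (1 without D0 replicate 2). With a minimum of more than 2-fold in place of 4-fold, 1, 1 and 3 members passed. Apart from the main fit and centring by length, no share over all features was taken under the settings of this section. The counts given here therefore describe the settings and are not results about the members. Deviations of same-numbered replicates had r of -0.13 for D0 with D6, 0.33 for D6 with D13 and 0.14 for D0 with D13, so the numbers were not taken to pair the samples. With the replicate number as a block, 2 members passed from D0 to D6 (Kdm2a added), 2 from D6 to D13 (Kdm3b added) and 4 from D0 to D13 (Kdm5b added, adjusted p = 0.029), from limma. The sign turned only for differences of members that did not pass the test. Leaving out 1 sample in turn, their D0 to D6 differences ranged from -0.32 to 0.54 for Kdm4a, -0.37 to 0.0022 for Kdm4b, -0.44 to 0.24 for Kdm5b and -0.24 to 0.50 for Kdm6b (turned without D0 replicate 1, D0 replicate 2, D0 replicate 2, and D0 replicate 1 or D6 replicate 2 at -0.023). Their D6 to D13 differences ranged from -0.91 to 0.043 for Kdm2a and -0.55 to 0.0060 for Kdm4a (both turned without D13 replicate 1) and from -0.080 to 0.43 for Kdm4c (without D13 replicate 2). Their D0 to D13 differences ranged from -0.23 to 0.16 for Kdm2b (turned without D0 replicate 1, or D13 replicate 1 at 0.044), from -0.51 to 0.14 for Kdm3b and -0.59 to 0.27 for Kdm4a (without D0 replicate 2, or D13 replicate 1 at 0.045 and 0.12) and from -0.67 to 0.072 for Kdm6b (without D0 replicate 2). The value of Kdm4b from D6 to D13 was 0.0032 with centring on the median gene and 0.030 with centring by length, which gave 0.21 for Kdm2b and 0.064 for Kdm3b from D0 to D13. The cause was not tested. Where a day keeps 1 sample, that sample is assumed to vary like the others. With 2 replicates per day, the spread between replicates limits these comparisons.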

Other observations

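Kdm5d was the measured JmjC gene with the largest rise, and the other measured Y-linked genes were listed after that value was seen. Of 8 Y-linked genes, 5 rose from D0 to D6 and from D0 to D13, against 13.7% and 20.6% of all features, or 4 of the other 7 without Kdm5d, and 0 changed from D6 to D13 in the limma fit (0 at an unadjusted p under 0.05). Uba1y had 1174 and 1995 reads at D0, then 12819 and 14148 at D6 and then 16050 and 18977 at D13. Usp9y had 51 and 73 reads at D0 and 857 and 1511 at D13, and Zfy2 had 14 and 20 at D0 and 107 and 404 at D13. Zfy1 had 77 and 558 reads at D0 and 489 and 2056 at D13, so that its read counts overlapped between these days. Its log2 CPM, scaled for depth, was -0.02 and 2.68 at D0 and 2.78 and 4.78 at D13, which did not overlap. The log2 fold change of Zfy1 was 2.45 (limma adjusted p = 0.046). That call was lost without D0 replicate 1 (1.1) or D13 replicate 2 (1.45), and the difference was 3.8 without D0 replicate 2. Ddx3y, with 7906 and 7382 reads at D0 and 7084 and 12176 at D13, and Eif2s3y, with 8235 and 10886 at D0 and 11773 and 11694 at D13, did not pass the test in any comparison, and neither did Uty. Kdm5d had 50 and 143 reads at D0 and 2358 and 3546 at D13.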
